A study of Mus musculus with 26 samples.

Results

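Expression of 44 germline and meiosis genes was examined in 10 RNA-seq libraries of mouse fibroblasts, heart and liver, with 1 library per condition. The members were taken by symbol from a list of genes of piRNA silencing, meiotic chromosomes, germ cell regulation and testis-type paralogs, and all 44 were found among the 52454 gene symbols of the deposited expression table. The list was made with values from these same libraries known, above all the difference between the KO 2i-MEFs. That difference, and every share of members set beside all genes below, is therefore a description and supports nothing. Values are FPKM, fragments scaled to transcript length and to the mapped fragments of a library. Differences are log2 ratios of FPKM + 1, and a gene was counted as higher or lower when FPKM + 1 differed at least 2-fold. No p-value was calculated because no condition has a second library, and the spread between replicates is unknown.

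Germline genes are silent in most somatic cells, and many of them carry a CpG-dense promoter that becomes methylated around implantation, with DNMT3B as a known writer of that methylation. A variant Polycomb complex that holds MGA, MAX and E2F6 is known to bind the same promoters through E-box and E2F motifs and to repress them. In germ cells the encoded proteins do separate jobs: piRNA factors silence transposons, cohesins and axis proteins shape meiotic chromosomes, the synaptonemal complex joins homologs, and recombination factors cut and exchange DNA.

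2 libraries came from 2i-MEFs, 1 with *Dnmt3a* KO and 1 with *Dnmt3b* KO. These are female passage 1 fibroblasts of an F1 (129X1/SvJ and MSM/Ms) background, made from E14.5 chimeric embryos. The ES cells behind them had been kept in 2i medium and LIF, mutated by CRISPR/Cas9, labelled with GFP and injected into ICR blastocysts, and each genotype is 1 KO line selected with G418. The other 8 libraries are labelled male and C57BL6, and the embryos came from crosses of mice heterozygous for the *Dnmt3a* tm1Enl allele. They comprise passage 1 MEFs labelled *Dnmt3a* WT and *Dnmt3a* KO, each with DMSO or with GSK126, an inhibitor of the histone methyltransferase EZH2 given at 10 µM for 2 days, and a pair of E14.5 tissues, heart and liver, from 1 embryo of either label. The labels number the embryo behind the WT heart and liver 4 and the embryo behind the other heart and liver 25. Sex, strain and origin all differ between 2i-MEFs and the 8 other libraries and cannot be told apart. The expression table holds no WT 2i-MEF library, and the 16 methylation samples were not used here.

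Estimated depth was lowest in *Dnmt3b* KO 2i-MEFs, with 9153550 mapped reads, and highest in WT liver, with 26153850. A transcript of 2000 bases at 1 FPKM thus stood for 16.5 to 47.2 reads. Fibroblast markers summed to between 5807 and 17093 FPKM in the 6 fibroblast libraries and to at most 1292 FPKM in tissues, and cardiomyocyte markers summed to at least 18672 FPKM in heart. *Dnmt3b* had 0.817 FPKM in the 2i-MEFs mutated in it, 1.81 FPKM in those mutated in *Dnmt3a* and 0.315 to 0.964 FPKM in the MEF libraries. *Dnmt3a* itself had 4.21 FPKM in the 2i-MEFs mutated in it and 23.9 FPKM in those mutated in *Dnmt3b*. In embryonic MEFs and heart it went against the labels: it was at 85.7 and 84.5 FPKM in MEFs labelled *Dnmt3a* KO against 26.1 and 19.3 FPKM in WT MEFs, and at 125 against 55.0 FPKM in heart, while liver labelled *Dnmt3a* KO had 12.7 against 53.5 FPKM in WT liver. A gene-level FPKM also counts reads outside a deleted part, so these values do not check the genotype, and the 4 libraries are named by their labels below. In tissues, fewer cells of a type and less RNA per cell cannot be told apart.

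Most members were barely transcribed in most libraries. The number of members at 1 FPKM or more was 8 in *Dnmt3a* KO and 12 in *Dnmt3b* KO 2i-MEFs, 6 in each of 3 MEF libraries and 8 in the MEFs labelled *Dnmt3a* KO with GSK126. Tissues held 6 (heart) and 7 (liver) with the WT label, and 17 (heart) and 12 (liver) with the *Dnmt3a* KO label. Among all protein-coding genes the share at 1 FPKM or more was nearly flat, between 52.7% and 55.3% in the 10 libraries. *Syce2*, which encodes a central element protein of the synaptonemal complex, *Tdrkh*, which encodes a Tudor and KH domain protein needed to mature piRNAs on mitochondria, and *Zcwpw1*, which encodes a histone methylation reader at meiotic break sites, reached 1 FPKM in every library. By contrast 20 members stayed under 1 FPKM in every library. *Piwil1*, which encodes the piRNA-binding protein MIWI, and *Mei1*, which is required for meiotic break formation, were listed at 0 in all 10.

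**Figure D1:**
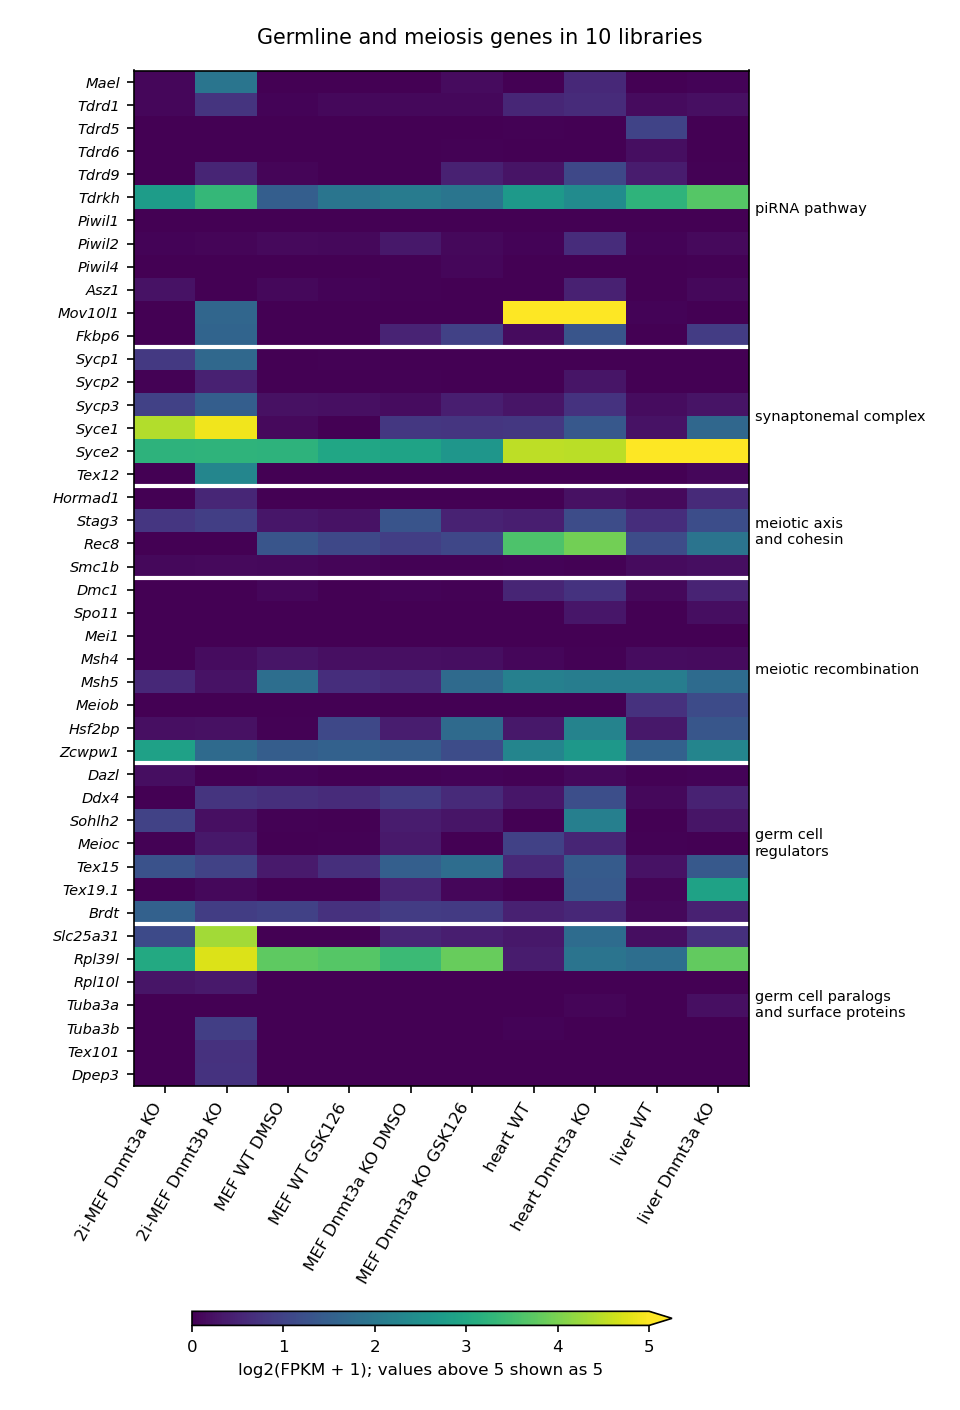
Heat map of log2(FPKM + 1) for the 44 members, 1 row per gene grouped by role, in the 10 libraries, 1 column per library named by its label, with values above 5 drawn as 5. Rows are dark across most columns, *Syce2* is brighter than most rows in every column, and *Tdrkh* is dimmer in MEFs than in 2i-MEFs and tissues. *Slc25a31*, *Tex12*, *Mael* and *Fkbp6* are brighter in *Dnmt3b* KO than in *Dnmt3a* KO 2i-MEFs.

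The *Dnmt3a* KO and *Dnmt3b* KO 2i-MEFs were compared with each other. Without a WT 2i-MEF library, this contrast cannot show which of them differs from WT. *Slc25a31*, *Tex12*, *Mael*, *Rpl39l*, *Mov10l1* and *Fkbp6* were higher in *Dnmt3b* KO by at least 2-fold, and *Zcwpw1* was higher in *Dnmt3a* KO. These 6 of 44 members compare with 0.906% of all genes and 1.27% of protein-coding genes that were higher in *Dnmt3b* KO, and the 1 of 44 with 1.43% and 2.39% that were higher in *Dnmt3a* KO. Since the members were chosen with this contrast known, nothing is read from these shares. Counting any difference in size, 27 members were higher in *Dnmt3b* KO, 7 in *Dnmt3a* KO and 10 equal, against 32.4% of protein-coding genes higher in *Dnmt3b* KO and 38.1% higher in *Dnmt3a* KO. The log2 ratio, with *Dnmt3b* KO as the denominator, had a median of -0.07 over the members and 0 over all genes.

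Among the testis-type paralogs, *Slc25a31* (ENSMUSG00000069041.8, mm10 chr3:40708855-40726096) had the largest difference of the 44 members. It encodes the mitochondrial ADP/ATP carrier of germ cells, which stands in for a somatic X-linked carrier during meiosis. *Dnmt3a* KO 2i-MEFs had 1.19 FPKM from 25 reads, whereas *Dnmt3b* KO 2i-MEFs had 18.7 FPKM from 331 reads. In WT MEFs it was listed at 0 with both treatments, and in MEFs labelled *Dnmt3a* KO it was at 0.425 FPKM with DMSO and 0.343 FPKM with GSK126. The WT tissues had 0.246 FPKM (heart) and 0.138 FPKM (liver), and those with the *Dnmt3a* KO label 2.39 FPKM and 0.625 FPKM. *Dnmt3b* KO 2i-MEFs stood above the 9 other libraries. The 2i-MEF ratio was 15.8-fold, with a 95% counting interval of 10.5 to 24.7.

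*Rpl39l* (ENSMUSG00000039209.12, chr16:10170226-10174911), an autosomal paralog of the X-linked ribosomal protein gene *Rpl39*, had 7.22 FPKM in *Dnmt3a* KO 2i-MEFs against 25.5 FPKM with *Dnmt3b* KO. It was transcribed in all MEF libraries too, at 9.58 to 13.3 FPKM, so *Dnmt3a* KO 2i-MEFs lay below and *Dnmt3b* KO 2i-MEFs above them. The ratio between the 2i-MEF libraries was 3.54-fold with an interval of 2.28 to 5.63. *Rpl39* itself was at 633 and 584 FPKM in the same libraries. *Rpl10l*, the autosomal retrocopy of X-linked *Rpl10*, was at 0.223 and 0.265 FPKM in the 2i-MEF libraries and listed at 0 in the 8 others. The testis tubulin gene *Tuba3b* and the genes for the germ cell surface proteins TEX101 and DPEP3 were at 0.900, 0.635 and 0.655 FPKM in *Dnmt3b* KO 2i-MEFs, from 13, 5 to 6 and 9 reads, and listed at 0 in *Dnmt3a* KO. In the 8 other libraries *Tex101* and *Dpep3* were listed at 0 throughout. *Tuba3b* shares 18.9% of its 75-base stretches with *Tuba3a*, and reads that both near copies share were lost from both by the removal of multiply mapped reads.

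In the synaptonemal complex the central element gene *Tex12* (ENSMUSG00000032065.6, chr9:50556819-50561325) was at 3.93 FPKM in *Dnmt3b* KO 2i-MEFs, from 25 to 29 reads. It was listed at 0 in 8 libraries, and the liver labelled *Dnmt3a* KO had 0.056 FPKM from 1 read. This is at least 9.99-fold above *Dnmt3a* KO 2i-MEFs if 3 reads are set as the floor of that library, and the lower counting limit was 7.49-fold. *Sycp1*, which encodes the transverse filament protein, had 0.789 FPKM with *Dnmt3a* KO against 2.22 FPKM with *Dnmt3b* KO. Elsewhere it was at 0.017 FPKM in WT MEFs with GSK126 and listed at 0, so both 2i-MEF libraries stood above all others. *Sycp2* and *Sycp3* encode proteins of the axial elements. *Sycp2* was at 0.017 and 0.375 FPKM and *Sycp3* at 0.945 and 1.80 FPKM in the *Dnmt3a* KO and *Dnmt3b* KO libraries. Of the 75-base stretches of *Sycp3*, 46.9% also lie in transcripts of *Chpt1*, an overlapping gene on the opposite strand. Whether the counting used strand is not given in the sources used here.

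*Syce1* (ENSMUSG00000025480.5, chr7:140777229-140787852), which encodes a central element protein, was high in both 2i-MEF libraries. *Dnmt3a* KO cells had 20.5 FPKM and *Dnmt3b* KO cells 28.8 FPKM, whereas MEFs ranged from 0 to 0.744 FPKM and tissues from 0.182 to 2.18 FPKM. The 2i-MEF libraries did not overlap with the 8 others, and they differed from each other by 0.47 on the log2 scale, with counting intervals of 12.2 to 31.6 FPKM and 18.5 to 43.8 FPKM that overlapped. Its shortest coding transcript has 281 bases, so that the reads behind these values could be as few as 19 and 23 or as many as 283 and 334. *Syce2*, which acts in the same structure, was at 8.34 and 8.53 FPKM in 2i-MEFs.

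Among the piRNA genes, *Mael* (ENSMUSG00000040629.8, chr1:166201201-166238747) encodes Maelstrom, which represses transposons in spermatocytes. It was at 0.068 FPKM in *Dnmt3a* KO 2i-MEFs, from 1 read, and at 2.84 FPKM in *Dnmt3b* KO 2i-MEFs, from 35 to 39 reads. The next highest library was the heart labelled *Dnmt3a* KO, at 0.482 FPKM, followed by MEFs labelled *Dnmt3a* KO with GSK126 at 0.105 FPKM and the liver labelled *Dnmt3a* KO at 0.029 FPKM, and 5 libraries listed it at 0. The 2i-MEF ratio was 41.7-fold with a counting interval of 7.01 to 1693, the width of which comes from the single read. *Fkbp6* (ENSMUSG00000040013.11, chr5:135291704-135350044), which encodes an immunophilin-like co-chaperone of piRNA loading, was listed at 0 in *Dnmt3a* KO and at 2.06 FPKM in *Dnmt3b* KO 2i-MEFs. With a floor of 3 reads it was at least 7.80-fold higher in *Dnmt3b* KO, and the lower counting limit was 5.88-fold.

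*Mov10l1* (ENSMUSG00000015365.15, chr15:88982909-89055152) encodes the helicase that processes piRNA precursors, and a heart-enriched isoform is known. It was listed at 0 in *Dnmt3a* KO 2i-MEFs and at 2.14 FPKM in *Dnmt3b* KO 2i-MEFs, at least 8.29-fold higher over a floor of 3 reads and with a lower counting limit of 6.20-fold. All 4 MEF libraries listed it at 0. Heart was far above both, with 102 FPKM (WT) and 80.8 FPKM (labelled *Dnmt3a* KO), and liver had at most 0.036 FPKM. Cardiomyocyte markers summed to 8.26 and 9.19 FPKM in the 2i-MEF libraries, of which *Tnnt2* made up 8.25 and 9.07 FPKM and *Myh6* and *Nppa* were listed at 0 in both. Which *Mov10l1* isoform the 2i-MEF reads come from was not tested.

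The remaining piRNA genes were low in 2i-MEFs apart from *Tdrkh*, which had 5.83 FPKM (*Dnmt3a* KO) and 9.12 FPKM (*Dnmt3b* KO), and 38.8% of the 75-base stretches of *Tdrkh* are shared with *Oaz3* on the opposite strand. *Tdrd1* and *Tdrd9*, genes for Tudor domain proteins of the piRNA granules, were at 0.059 and 0 FPKM in *Dnmt3a* KO and at 0.674 and 0.427 FPKM in *Dnmt3b* KO. *Asz1*, which encodes a scaffold of those granules, went the other way, at 0.186 and 0 FPKM. *Tdrd5*, *Tdrd6* and *Piwil4* were listed at 0 in both 2i-MEF libraries.

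*Zcwpw1* (ENSMUSG00000037108.13, chr5:137787798-137822621) was the member higher in *Dnmt3a* KO, at 6.27 FPKM against 2.30 FPKM in *Dnmt3b* KO 2i-MEFs. The ratio was 2.72-fold with an interval of 1.43 to 5.51. The 4 MEF libraries lay between 1.25 and 1.93 FPKM and the tissues between 1.95 and 5.32 FPKM, so *Dnmt3a* KO 2i-MEFs held the highest value. Of the 75-base stretches of *Zcwpw1*, 18.4% also lie in transcripts of *Pilra* on the opposite strand. Values of *Sohlh2*, a helix-loop-helix regulator of germ cell differentiation, and of *Brdt*, a testis bromodomain protein, were likewise larger in *Dnmt3a* KO, at 0.973 against 0.151 FPKM and 1.95 against 0.865 FPKM, without reaching 2-fold in FPKM + 1. *Ddx4*, the germ cell helicase VASA, went in the opposite direction, without a read in *Dnmt3a* KO and at 0.681 FPKM in *Dnmt3b* KO. It was also at 0.517 to 0.807 FPKM in the 4 MEF libraries, so that *Dnmt3b* KO 2i-MEFs did not stand above them.

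The other members stayed low in 2i-MEFs or differed little there. *Hormad1*, which encodes a HORMA domain protein of the meiotic axis, was at 0 and 0.460 FPKM in *Dnmt3a* KO and *Dnmt3b* KO, at most 0.501 FPKM elsewhere, and 15.2% of its 75-base stretches are shared with *Gm15529*. *Tex15*, *Stag3* and *Hsf2bp*, described with MEFs and tissues below, were at 1.40 and 0.969 FPKM, 0.723 and 0.900 FPKM and 0.148 and 0.176 FPKM. *Meioc*, which keeps germ cells in meiotic prophase, was at 0.021 and 0.244 FPKM and had its highest level, 0.944 FPKM, in WT heart. *Meiob*, which encodes a single-strand DNA binding protein of meiotic recombination, was read in liver alone, with 0.635 FPKM for WT against 1.22 FPKM for the *Dnmt3a* KO label.

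Several genes that define the germ line were low everywhere, but *Ddx4* was not among them. It had 1.29 FPKM, from 51 to 56 reads, in the heart labelled *Dnmt3a* KO against 0.226 FPKM in WT heart. *Tdrd9* had 1.12 and 0.206 FPKM in the same libraries. *Dazl*, which encodes an RNA-binding protein of germ cells, reached 0.133 FPKM at most, in *Dnmt3a* KO 2i-MEFs. The meiotic recombinase gene *Dmc1* reached 0.651 FPKM, from 17 to 20 reads, and *Spo11*, whose product makes the meiotic breaks, 0.229 FPKM, both in the heart labelled *Dnmt3a* KO. The cohesin gene *Smc1b* did not exceed 0.132 FPKM, and *Msh4*, the partner of *Msh5*, 0.213 FPKM. Of the Argonaute genes, *Piwil2* (MILI) had its highest level, 0.550 FPKM, in the same heart and *Piwil4* (MIWI2) 0.061 FPKM in MEFs labelled *Dnmt3a* KO with GSK126. *Tdrd6* and *Tuba3a* did not exceed 0.143 and 0.148 FPKM. In all, 25 members were at least 2-fold apart in none of the 7 pairwise comparisons and were not 2-fold above all MEF or all tissue libraries in 2i-MEFs. Lower levels in 2i-MEFs than in MEFs or tissues were not counted, and 5 of the 25 lay at least 2-fold below the highest tissue library, *Rec8*, *Syce2* and *Meiob* in both 2i-MEF libraries and *Tdrd9* and *Ddx4* in *Dnmt3a* KO.

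**Figure D2:**
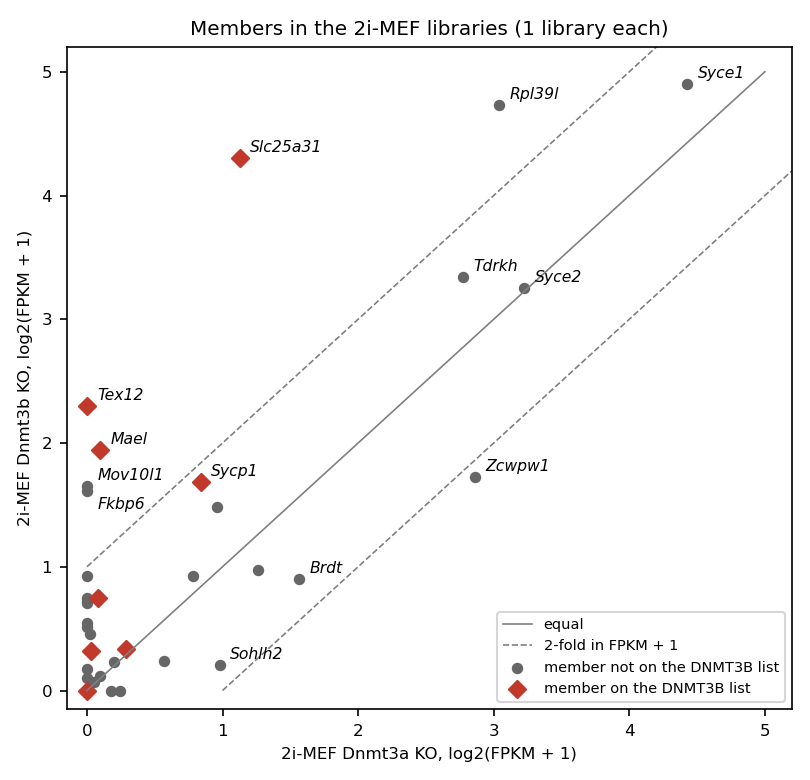
Expression of the 44 members in *Dnmt3a* KO (x axis) and *Dnmt3b* KO (y axis) 2i-MEFs, both as log2(FPKM + 1), 1 point per gene, with red diamonds for the 8 members on the study's DNMT3B list. The solid line marks equal values and the dashed lines a 2-fold difference, with *Slc25a31*, *Tex12*, *Mael*, *Rpl39l*, *Mov10l1* and *Fkbp6* above the upper dashed line and *Zcwpw1* below the lower one.

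The study drew up lists of genes with lower methylation in each KO from the methylation of these 2i-MEF lines, so the lists are not independent of the cells, though RNA was not used for them. The DNMT3B list held 8 members, *Mael*, *Tdrd1*, *Sycp1*, *Tex12*, *Mei1*, *Meioc*, *Slc25a31* and *Rpl10l*, and the DNMT3A list held 0. Of these 8, 7 had the larger FPKM in *Dnmt3b* KO and *Mei1* was listed at 0 in both libraries. At least 2-fold higher were 3 of the 8 (37.5%), namely *Slc25a31*, *Tex12* and *Mael*, against 3 of the 36 members on neither list (8.33%), 0.906% of all genes and 1.27% of protein-coding genes. Since the members were chosen with this contrast known, the split is a description. Over all 333 genes of the DNMT3B list found in the table, 14 (4.20%) favoured *Dnmt3b* KO at least 2-fold and 9 (2.70%) *Dnmt3a* KO. By any amount the whole list leaned the other way from its 8 members, with 88 genes higher in *Dnmt3b* KO and 134 in *Dnmt3a* KO. Of the 354 genes of the DNMT3A list found in the table, 9 (2.54%) favoured *Dnmt3b* KO and 21 (5.93%) *Dnmt3a* KO at least 2-fold. *Rpl39l*, *Mov10l1* and *Fkbp6* are on neither list.

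The promoters were read for the members that differed most between the 2i-MEF libraries, because E-box and E2F motifs are where the known repressor complex binds. A RefSeq promoter of GRCm38.p6, 250 bases before to 50 bases after the start, was given for 39 of the 44 members. *Meiob*, *Piwil2*, *Tdrd6*, *Spo11* and *Tex15* had none. Some RefSeq starts lay far from the annotated gene start: *Piwil1* (33722 bases), *Mei1* (12479), *Tex101* (4625), *Meioc* (1869) and *Msh4* (1247). They stay in the shares below, with an E-box counted for *Piwil1* and an E2F motif for *Meioc*. Bases upstream of the first annotated start are shown 5′ to 3′ on the strand of the gene, with E-box CACGTG and E2F motif GCGGGAA, the latter on either strand, in capitals.
The 3 members with the largest excess in *Dnmt3b* KO were *Slc25a31* (chr3:40708621-40708854, + strand), *Tex12* (chr9:50561326-50561518, - strand) and *Mael* (chr1:166238748-166238994, - strand).
Slc25a31: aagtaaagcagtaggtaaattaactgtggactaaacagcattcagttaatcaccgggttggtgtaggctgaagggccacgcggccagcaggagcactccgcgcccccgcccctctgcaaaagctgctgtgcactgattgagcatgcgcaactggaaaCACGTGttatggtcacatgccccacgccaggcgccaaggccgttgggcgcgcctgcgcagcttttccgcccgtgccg
Tex12: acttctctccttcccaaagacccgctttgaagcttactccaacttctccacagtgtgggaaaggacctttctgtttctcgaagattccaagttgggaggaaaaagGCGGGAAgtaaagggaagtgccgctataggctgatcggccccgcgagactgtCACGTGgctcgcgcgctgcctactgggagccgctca
Mael: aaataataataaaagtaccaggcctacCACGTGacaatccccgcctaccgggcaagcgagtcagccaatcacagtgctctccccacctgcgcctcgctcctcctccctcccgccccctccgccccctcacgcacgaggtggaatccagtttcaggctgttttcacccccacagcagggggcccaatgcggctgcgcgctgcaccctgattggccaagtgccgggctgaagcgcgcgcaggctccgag
The 2 members with the largest opposite difference were *Zcwpw1* (chr5:137787656-137787797, + strand, without bases exonic in the neighbouring *Mepce*) and *Sohlh2* (chr3:55181794-55182027, + strand), and *Syce2* (chr8:84871861-84872110, + strand) had the highest minimum over the libraries.
Zcwpw1: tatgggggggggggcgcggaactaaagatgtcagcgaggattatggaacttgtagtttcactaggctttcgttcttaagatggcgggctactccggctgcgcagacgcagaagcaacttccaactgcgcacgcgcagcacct
Sohlh2: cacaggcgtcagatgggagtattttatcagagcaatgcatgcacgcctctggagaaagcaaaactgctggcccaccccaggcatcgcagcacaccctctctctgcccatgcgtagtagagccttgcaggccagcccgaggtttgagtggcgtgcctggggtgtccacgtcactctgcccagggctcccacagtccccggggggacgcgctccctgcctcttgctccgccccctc
Syce2: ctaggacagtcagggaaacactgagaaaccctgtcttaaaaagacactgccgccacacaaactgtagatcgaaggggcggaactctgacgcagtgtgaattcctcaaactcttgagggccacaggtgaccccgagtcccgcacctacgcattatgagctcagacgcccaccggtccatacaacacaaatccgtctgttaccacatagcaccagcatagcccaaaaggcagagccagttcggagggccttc

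Each of the first 3 promoters holds an E-box and none of the last 3 does. Counted from the RefSeq start, which lies 16, 57 and 3 bases beyond the stretches shown for *Slc25a31*, *Tex12* and *Mael*, it spans bases -93 to -88 in both *Slc25a31* and *Tex12* and bases -223 to -218 in *Mael*. *Tex12* also has an E2F motif at bases -145 to -139, and *Slc25a31* has one at bases 19 to 25 downstream, outside the stretch shown. Of the 39 promoters, 14 (35.9%) held the E-box, against 7.15% of all 32851 RefSeq promoters searched in the same way. The E2F motif was likewise in 14 (35.9%) against 4.60%, and 6 (15.4%) held both against 0.457%. Of the 6 members at least 2-fold higher in *Dnmt3b* KO, 5 held the E-box, with *Rpl39l* as the exception, as did 9 of the 33 other members. The E2F motif was in 2 of the 6 (33.3%) and 12 of the 33 others (36.4%). A match to these letters is a description and not a binding site, and the members were listed as germline genes, for which such promoters are known.

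CpG density was also higher in members than in promoters at large. The observed over expected CpG number had a median of 0.716 over the 39 promoters and 0.384 over all promoters, and it reached 0.6 in 28 members (71.8%) against 35.8% of all promoters. All 6 members at least 2-fold higher in *Dnmt3b* KO reached 0.6, from 0.674 in *Mov10l1* to 0.926 in *Fkbp6*. *Zcwpw1*, which was higher in *Dnmt3a* KO, had 1.06 and neither motif. A CpG-dense promoter was thus found on members of either direction.

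**Figure D3:**
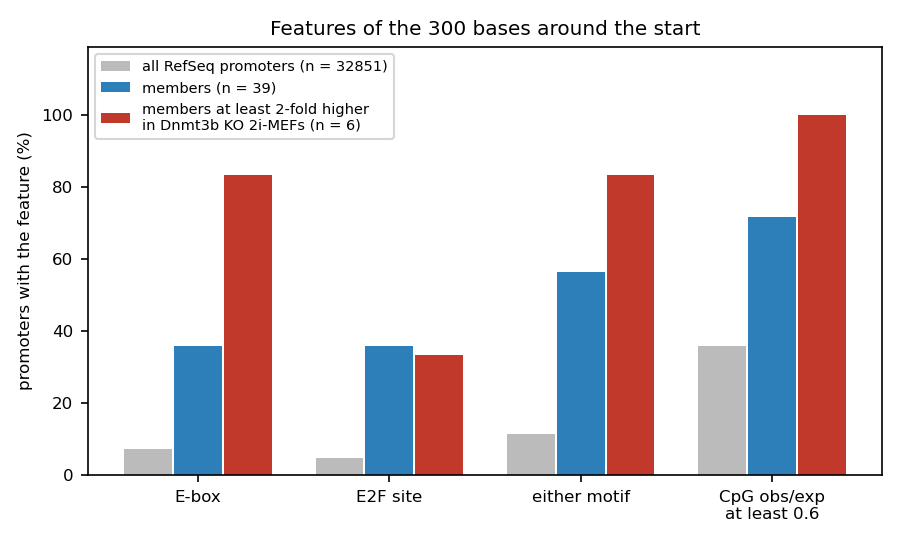
Share of promoters, in percent, that hold an E-box, an E2F site, either motif, or an observed over expected CpG ratio of at least 0.6, in all 32851 RefSeq promoters (grey), the 39 members with a promoter (blue) and the 6 members at least 2-fold higher in *Dnmt3b* KO 2i-MEFs (red). The E-box is in 7.15%, 35.9% and 83.3% and the E2F site in 4.60%, 35.9% and 33.3%, and the red bars rest on 6 genes defined by the 2i-MEF contrast that was known when members were chosen.

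Against embryonic MEFs, *Dnmt3a* KO 2i-MEFs had 2 members at least 2-fold above the highest of the 4 MEF libraries, *Syce1* and *Zcwpw1*, where 0.986% of all genes and 1.31% of protein-coding genes were that far above. *Dnmt3b* KO 2i-MEFs had 8, *Syce1*, *Slc25a31*, *Tex12*, *Mael*, *Sycp1*, *Mov10l1*, *Tdrkh* and *Sycp3*, where the share was 1.14% of all genes and 1.65% of protein-coding genes. *Tdrkh* was at 9.12 FPKM against 1.83 to 3.22 FPKM in MEFs, but at 4.32 to 11.8 FPKM in tissues. *Sycp3* was at 1.80 FPKM against 0.121 to 0.342 FPKM in MEFs and 0.118 to 0.669 FPKM in tissues. Above the highest of the 4 tissue libraries were *Syce1* and *Brdt* for *Dnmt3a* KO, where 3.64% of all genes and 7.08% of protein-coding genes were above, and *Syce1*, *Slc25a31*, *Tex12*, *Sycp1* and *Mael* for *Dnmt3b* KO, where 3.46% and 6.71% were above. *Brdt*, at 1.95 FPKM in *Dnmt3a* KO, had 0.084 to 0.473 FPKM in tissues and less than 1 FPKM in each MEF library, and centring on expressed genes took it under 2-fold. The reverse was seen for *Rec8*, the gene of the meiotic kleisin subunit of cohesin, which was listed at 0 in both 2i-MEF libraries and was at 0.905 to 1.49 FPKM in MEFs and 11.2 and 14.4 FPKM in heart.

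**Figure D4:**
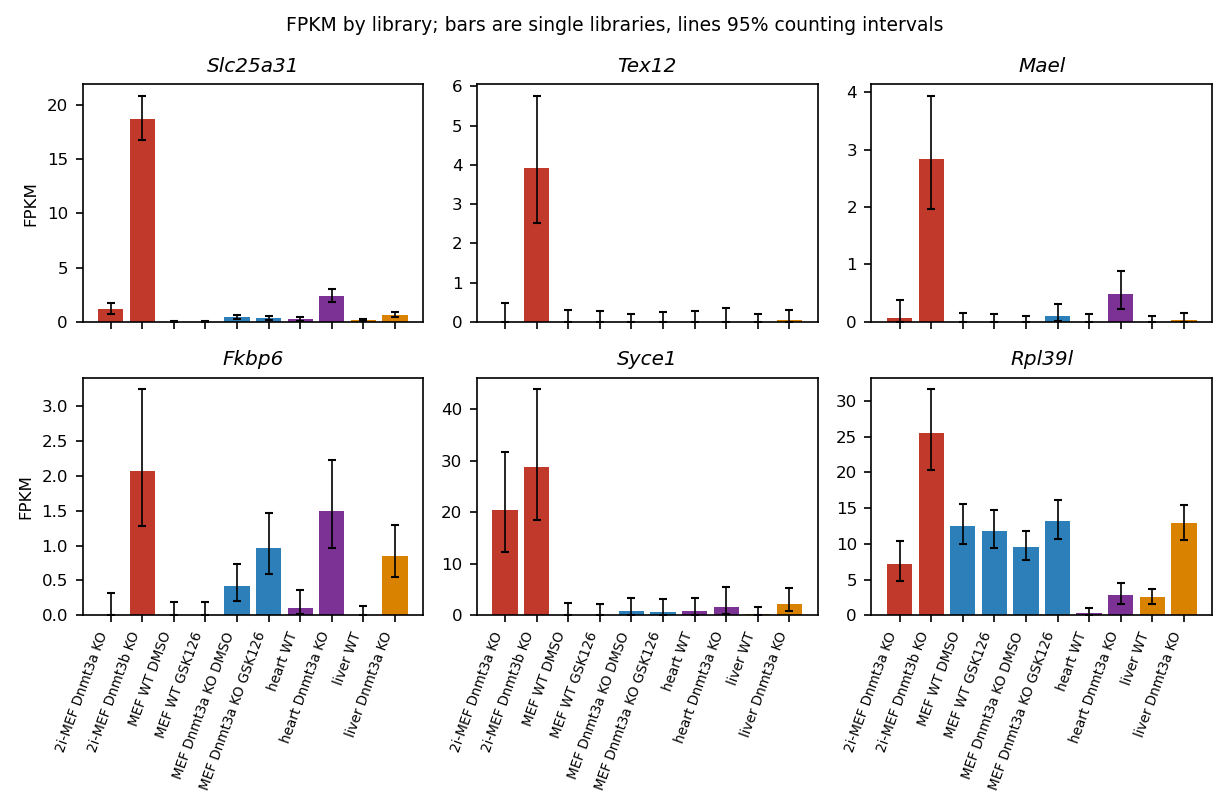
FPKM of *Slc25a31*, *Tex12*, *Mael*, *Fkbp6*, *Syce1* and *Rpl39l* in the 10 libraries, 1 bar per library named by its label (2i-MEFs red, MEFs blue, heart purple, liver orange), with 95% Poisson counting intervals from the reads on the shortest coding transcript as lines. *Slc25a31*, *Tex12* and *Mael* are highest in *Dnmt3b* KO 2i-MEFs, *Syce1* is high in both 2i-MEF libraries, and *Fkbp6* is listed at 0 in *Dnmt3a* KO 2i-MEFs, WT MEFs and WT liver.

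In heart, 6 members were at least 2-fold higher in the library labelled *Dnmt3a* KO than in WT, *Sohlh2*, *Hsf2bp*, *Rpl39l*, *Slc25a31*, *Tex19.1* and *Fkbp6*, against 0.576% of all genes and 0.714% of protein-coding genes. None was at least 2-fold lower, where 0.488% of all genes and 0.547% of protein-coding genes were lower. By any amount 26 members were higher and 9 lower, against 36.8% and 37.2% of protein-coding genes. All 11 members that reached 1 FPKM in only one of the libraries did so in the one labelled *Dnmt3a* KO, whereas 366 protein-coding genes (1.70%) did so there and 339 (1.57%) in WT. *Sohlh2* (ENSMUSG00000027794.4, chr3:55182028-55209957) showed the largest difference, from 0 to 3.44 FPKM on 115 reads, at least 47.1-fold over a floor of 3 reads, with a lower counting limit of 37.7-fold. Its level was at most 0.973 FPKM in the 8 libraries outside heart, so the heart labelled *Dnmt3a* KO stood above all 9 others. *Hsf2bp* (ENSMUSG00000002076.11, chr17:31944769-32034508), which encodes a partner of BRCA2 in meiotic recombination, went from 0.255 FPKM in WT to 3.72 FPKM, 14.6-fold higher with an interval of 6.64 to 42.6.

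*Slc25a31* was 9.69-fold higher in the heart labelled *Dnmt3a* KO, with an interval of 4.83 to 22.1. *Fkbp6* was at 0.102 and 1.49 FPKM, from 2 reads in WT, and *Rpl39l* at 0.302 and 2.78 FPKM, from 2 to 3 reads in WT, with ratio intervals of 3.66 to 129 and 2.14 to 83.1. *Tex19.1*, a mammal-specific gene that guards germ cells against transposons, was listed at 0 in WT and at 1.64 FPKM in the other library, from 5 to 39 reads depending on the transcript, at least 2.18-fold higher over a floor of 3 reads but with a lower counting limit of 1.13-fold. The members with the highest heart levels, *Mov10l1*, *Syce2* at 21.7 and 21.5 FPKM and *Rec8* at 11.2 and 14.4 FPKM, did not differ 2-fold. Hepatocyte markers moved too: 4 of 5 were at least 2-fold lower in the heart labelled *Dnmt3a* KO, their sum being 7.20 against 32.8 FPKM. None of the 5 was at 0 in heart. Their part in the heart result was not tested.

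In liver, *Tex19.1*, *Rpl39l*, *Syce1*, *Tex15* and *Hsf2bp* were at least 2-fold higher in the library labelled *Dnmt3a* KO, 5 of 44 members against 0.351% of all genes and 0.334% of protein-coding genes. *Tdrd5* was lower, 1 of 44 against 0.581% of all genes and 0.904% of protein-coding genes. By any amount 28 members were higher and 8 lower, whereas 29.2% of protein-coding genes were higher and 46.4% lower. *Tex19.1* (ENSMUSG00000039329.8, chr11:121146143-121148319) reached 6.34 FPKM, its highest level in the 10 libraries, from 0.049 FPKM in WT liver, where at most 2 reads lay behind it. The lower limit of its ratio was 8.89-fold. MEFs had at most 0.404 FPKM and 2i-MEFs at most 0.071 FPKM of it. *Rpl39l* was at 2.51 and 12.9 FPKM, 5.13-fold higher with an interval of 3.29 to 8.49, and *Hsf2bp* at 0.246 and 1.51 FPKM, 6.16-fold higher with an interval of 2.99 to 15.5.

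*Tex15*, which encodes a factor of piRNA-directed silencing and meiosis, was at 0.188 FPKM in WT liver and 1.65 FPKM in the other, 8.76-fold higher with an interval of 2.24 to 39.0. For *Syce1*, at 0.182 and 2.18 FPKM, the lower limit was 0.933-fold if all reads fell on its shortest transcript, so that counting error alone could cover this difference. *Tdrd5* was at 1.01 FPKM in WT liver and listed at 0 in the library labelled *Dnmt3a* KO, at least 3.67-fold lower over a floor of 3 reads, with a limit of 2.46-fold from counting error. Outside that library, *Tdrd5* did not exceed 0.018 FPKM. Centring on expressed genes, whose median log2 ratio in liver was -0.076, brought *Tdrd5* under 2-fold. Markers of other cell types also differed: cardiomyocyte markers summed to 6.47 FPKM in the liver labelled *Dnmt3a* KO against 60.3 FPKM in WT, with 3 of 5 at least 2-fold lower, and fibroblast markers to 226 against 457 FPKM with 2 of 5 lower. The erythroid marker *Hbb-bt* was at least 2-fold higher, at 24899.7 against 10217.6 FPKM, and the erythroid markers summed to 84494 against 56203 FPKM. Hepatocyte markers summed to 10796 against 17823 FPKM, with 0 of 5 at least 2-fold lower. *Nppa* was listed at 0 in WT liver and the other cardiomyocyte and fibroblast markers were above 0 in both. The part of these cell types in the liver result was not tested.

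**Figure D5:**
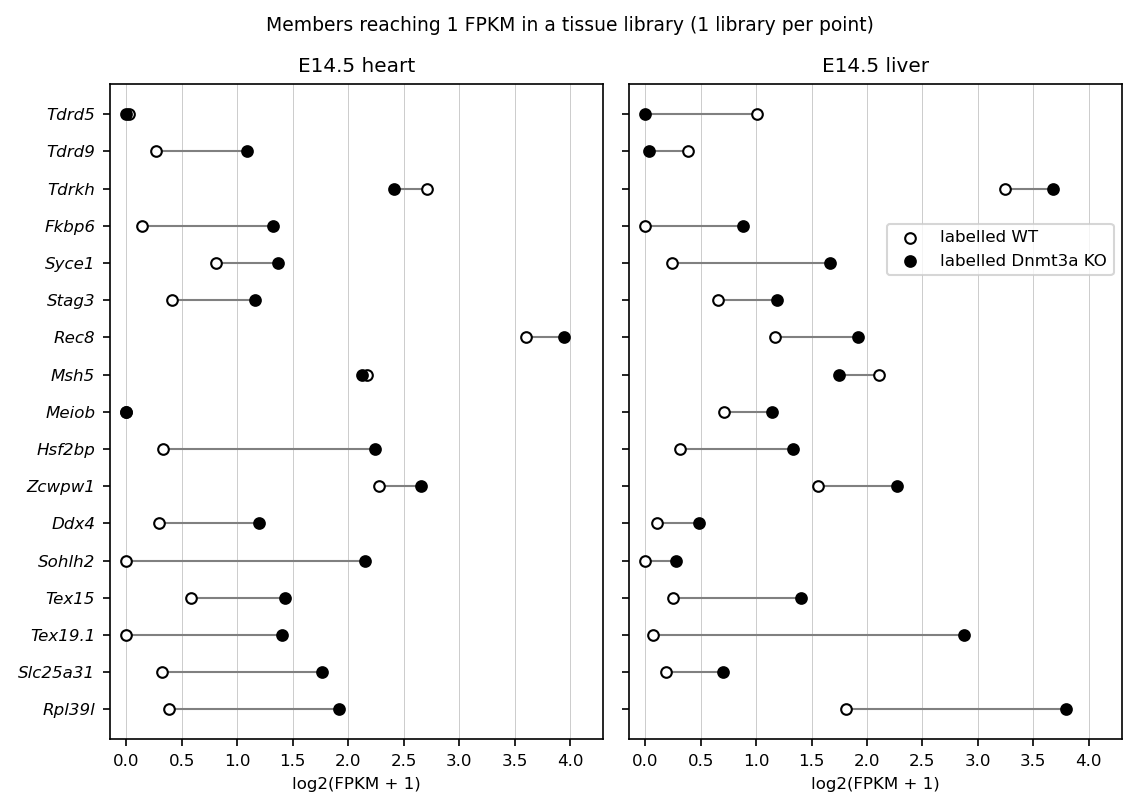
Levels of 17 members that reached 1 FPKM in at least 1 tissue library, leaving out *Mov10l1* and *Syce2*, in E14.5 heart (left) and liver (right), as log2(FPKM + 1), with open circles for libraries labelled WT, filled circles for libraries labelled *Dnmt3a* KO and a line joining each pair. A member reaching 1 FPKM only in a library labelled *Dnmt3a* KO had to be drawn to the right there, so the side on which circles fall is partly fixed by the choice, and *Tdrd5* in liver is the widest line to the left.

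*Hsf2bp*, *Rpl39l* and *Tex19.1* were at least 2-fold higher in both tissues, 3 of the 6 heart members (50%) and 3 of the 5 liver members (60%). Over protein-coding genes, 15 were higher in both, 9.74% of the 154 in heart and 20.8% of the 72 in liver. Both tissues come from the same embryo of each label, so these are not independent observations. *Fkbp6* came close in liver, from 0 to 0.848 FPKM. None of 12 markers of primordial germ cells and pluripotency was at least 2-fold higher in either tissue labelled *Dnmt3a* KO. Of all genes 0.576% were higher in heart and 0.351% in liver, so 0 of 12 tells little about these markers. *Pou5f1*, *Prdm14*, *Zfp42* and *Tfap2c* were at 0 in both heart libraries, and the 12 markers summed to 3.79 and 4.90 FPKM in heart and 2.51 and 2.38 FPKM in liver, WT first.

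In embryonic MEFs with DMSO, *Tex15* and *Stag3* were at least 2-fold higher in the library labelled *Dnmt3a* KO, 2 of 44 members against 1.11% of all genes and 1.58% of protein-coding genes. *Msh5* was lower, 1 of 44 against 0.528% and 0.792%. With GSK126, *Tex15* and *Msh5* were higher, 2 of 44 against 0.745% and 1.28%, and none was lower, where 0.764% and 1.14% were. By any amount 16 members were higher and 12 lower with DMSO, against 40.8% and 33.3% of protein-coding genes, and 19 were higher and 11 lower with GSK126, against 36.4% and 36.5%. *Tex15* (ENSMUSG00000009628.14, chr8:33516738-33585582) was at 0.290 and 0.590 FPKM in WT MEFs with DMSO and GSK126 and at 1.87 and 2.45 FPKM in MEFs labelled *Dnmt3a* KO, so the labels did not overlap. Heart had 0.492 FPKM in WT and 1.70 FPKM with the other label. Both its ratios, 6.44-fold with DMSO and 4.14-fold with GSK126, had intervals above 1, of 1.71 to 29.1 and 1.60 to 11.8. *Stag3*, which encodes a meiotic cohesin subunit, had 0.229 FPKM (WT) and 1.47 FPKM (*Dnmt3a* KO label) with DMSO, but 0.184 and 0.397 FPKM with GSK126. Tissues had 0.332 and 1.24 FPKM in heart and 0.575 and 1.28 FPKM in liver, WT first. The reads behind the DMSO values were 10 and 1 on its shortest and 151 and 17 on its longest transcript, and the ratio of 6.42-fold had an interval of 0.998 to 305 on the former. Its DMSO difference was 1.01 on the log2 scale and fell under 2-fold when ratios were centred on expressed genes.

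*Msh5* (ENSMUSG00000007035.15, chr17:35028605-35046745), which encodes a partner of MSH4 that stabilizes crossover intermediates, crossed over between the treatments. Its level was 2.51 FPKM in WT with DMSO, 0.583 FPKM in WT with GSK126, 0.494 FPKM in MEFs labelled *Dnmt3a* KO with DMSO and 2.31 FPKM in those with GSK126. High and low libraries thus alternated, with 112 to 121 and 121 to 131 reads in the high ones and 28 to 30 and 31 to 34 reads in the low ones. The difference between the treatments within each label was at least 2-fold as well, with GSK126 over DMSO at -1.15 in WT and 1.15 in MEFs labelled *Dnmt3a* KO on the log2 scale. Heart and liver had 2.35 to 3.50 FPKM and 2i-MEFs 0.482 and 0.179 FPKM, in the order *Dnmt3a* KO and *Dnmt3b* KO.

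GSK126 was compared with DMSO within each label to ask whether loss of EZH2 activity alters these genes. *Hsf2bp* was at least 2-fold higher with GSK126 in both labels, moving from 0.021 to 1.11 FPKM with the WT label and from 0.314 to 2.33 FPKM with the *Dnmt3a* KO label. In WT it was 1 member higher, against 0.559% of all genes and 0.695% of protein-coding genes, and *Msh5* was 1 lower, against 0.408% and 0.454%. In MEFs labelled *Dnmt3a* KO, *Hsf2bp* and *Msh5* were the 2 members higher, against 0.522% and 0.741%, and none was lower, where 0.846% and 0.936% were. By any amount 7 members were higher and 17 lower with GSK126 in WT, against 37.1% and 35.7% of protein-coding genes, and 13 were higher and 17 lower in MEFs labelled *Dnmt3a* KO, against 33% and 41%. For *Hsf2bp* the lower limit of the ratio was 6.59-fold in WT, where at most 1 read lay behind the DMSO value, and the interval was 3.89 to 16.7 in MEFs labelled *Dnmt3a* KO. Its 4 MEF levels therefore rose with GSK126 in each label and were larger in the libraries labelled *Dnmt3a* KO in each treatment. *Fkbp6* was listed at 0 in WT MEFs with both treatments and was at 0.415 FPKM with DMSO and 0.960 FPKM with GSK126 in MEFs labelled *Dnmt3a* KO.

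Marker genes moved in the MEF comparisons too. *Wt1* was at least 2-fold higher with the *Dnmt3a* KO label, from 1.03 to 5.42 FPKM with DMSO and from 0.982 to 4.56 FPKM with GSK126. *Tnnt2*, a cardiomyocyte marker, and *Dnd1*, a germ cell marker, were higher with that label in DMSO, from 1.49 to 6.42 FPKM and from 0.035 to 1.81 FPKM, and *Gata4* was higher in GSK126, from 0.281 to 1.97 FPKM. The fibroblast marker *Col3a1* was lower with that label in GSK126, at 1193 against 2398 FPKM. With GSK126 against DMSO, *Tnnt2* was higher in WT MEFs, from 1.49 to 6.76 FPKM, and *Col3a1* lower in MEFs labelled *Dnmt3a* KO, from 2754 to 1193 FPKM. The defining cardiomyocyte gene *Myh6* did not exceed 0.035 FPKM in MEFs, and the fibroblast sums ranged from 5807 to 11542 FPKM. *Actc1* and *Myh7* had larger values with GSK126 in both labels, below 2-fold in FPKM + 1. In WT these were 1.38 against 0.262 FPKM and 0.235 against 0.009 FPKM. With the *Dnmt3a* KO label they were 1.19 against 0.859 FPKM and 0.191 against 0.007 FPKM. *Tnnt2* and *Nppa* were smaller with GSK126 under that label, at 6.18 against 6.42 FPKM and 0 against 0.059 FPKM. The part of these markers in the MEF results was not tested.

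Across the 4 comparisons of a library labelled *Dnmt3a* KO with WT, 8 members had the larger value in the former each time: *Fkbp6*, *Syce1*, *Stag3*, *Hsf2bp*, *Sohlh2*, *Tex15*, *Tex19.1* and *Slc25a31*. That is 18.2% of members against 4.31% of protein-coding genes, and 2 members (4.55%), *Syce2* and *Msh4*, were lower each time against 6.08%. The members were chosen with values of these libraries known, so nothing is read from these shares. Both MEF comparisons use MEFs of the same labels and both tissue comparisons the same embryos, and a member at 0 in both libraries of a comparison can enter neither count.

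Of the other genes of these pathways, 36 that are not members were looked at, and this list too was written with earlier results known. In 2i-MEFs, *Dnmt3b* KO exceeded *Dnmt3a* KO at least 2-fold in 5 of the 36, against 0.906% of all genes and 1.27% of protein-coding genes, and the reverse was seen in none, against 1.43% and 2.39%. These were *Rnf212*, which encodes a crossover E3 ligase, at 0.655 and 7.90 FPKM, *Tex11*, an X-linked meiosis gene, at 0.180 and 1.79 FPKM, and *Taf7l*, a testis paralog of a TFIID subunit, at 0 and 1.60 FPKM, with *Adad1* at 0 and 1.16 FPKM and the X-linked homeobox gene *Rhox13* at 0 and 1.13 FPKM. At 1 FPKM or more were 5 of the 36 in *Dnmt3a* KO and 14 in *Dnmt3b* KO, whereas MEFs had 3 to 7 and tissues 8 or 9. In heart *Tex11* was the 1 gene of 36 at least 2-fold higher in the library labelled *Dnmt3a* KO, at 0.086 and 1.62 FPKM, where 0.576% of all genes were higher, and in liver it was *Rec114*, a meiotic break factor, at 35.0 and 73.7 FPKM, where 0.351% were. Between the labels of MEFs the count was 0 of 36 in either direction with DMSO and with GSK126. Of all genes 1.11% were higher and 0.528% lower with DMSO, and 0.745% higher and 0.764% lower with GSK126. With GSK126 against DMSO, *Prdm9*, which encodes the histone methyltransferase that places meiotic breaks, was lower in MEFs labelled *Dnmt3a* KO, from 2.204 to 0.465 FPKM, 1 of 36 against 0.846% of all genes.

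Marker genes of germ cells and gonads were also read in 2i-MEFs. The 12 markers of primordial germ cells and pluripotency summed to 2.50 FPKM (*Dnmt3a* KO) and 3.79 FPKM (*Dnmt3b* KO), with *Pou5f1*, *Dppa3*, *Prdm14*, *Zfp42*, *Dppa4* and *Dppa5a* at 0 in both. *Nanos3*, a gene of migrating germ cells, was the 1 of 12 at least 2-fold higher in *Dnmt3b* KO, at 0.393 and 2.81 FPKM, and made up most of that sum. The 6 gonadal markers summed to 8.04 and 9.18 FPKM, of which *Sox9*, also a gene of cartilage, made up 5.02 and 2.13 FPKM. *Nr5a1* and *Foxl2* were at 0 in *Dnmt3b* KO, and *Wt1*, which is also made in mesothelium and mesenchyme, was the 1 of 6 at least 2-fold higher in *Dnmt3b* KO, at 1.57 and 6.22 FPKM. The part of these cell types in the 2i-MEF difference was not tested. Among 20 genes for the repressor complex and DNA and histone methylation, *Dnmt3a* alone differed at least 2-fold in FPKM + 1 between 2i-MEF libraries. *Dnmt3b* passed 2-fold in FPKM but not in FPKM + 1, with 0.817 FPKM where it was mutated against 1.81 FPKM. *E2f6* was at 14.4 and 14.1 FPKM, *Mga* at 13.1 and 15.8 FPKM and *Pcgf6* at 4.19 and 4.14 FPKM, *Dnmt3a* KO first.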

How the data were processed

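RNA of 10 libraries was sequenced as single-end reads of 75 bases. The authors deposited 1 table of FPKM for the whole series, and the submitters' processing notes list TopHat2 2.1.0, Bowtie2 2.2.5 and 2.2.8, Cufflinks 2.2.1 and cutadapt 1.9.1, with mm10 as the build. The study's methods add that reads mapping to several places were dropped by a MAPQ minimum of 20, so reads shared by near copies are lost. Rows of the same symbol were summed, which gave 52454 symbols from 52609 rows, 21579 of them protein-coding, and no other filter was set. Log2 ratios used FPKM + 1, and a 2-fold difference counted as a call. The 7 pairwise comparisons, and each 2i-MEF library against the highest of 4 MEF and 4 tissue libraries, were described without a test.

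The 44 members and all lists were chosen with earlier results of these data known. Members at least 2-fold apart in a comparison, or above all MEFs or tissues, were described with their values, the others by ranges and counts. The study's lists of genes with lower methylation were used by symbol only.

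Depth was estimated from the steps between low FPKM values of single-transcript genes of at least 1500 bases, assuming a fragment length of 196 bases, and 97.6% to 99.0% of values under 10 reads then came out whole within 0.05 read, against 10% for evenly spread values. Reads were computed for the shortest and the longest coding transcript of GENCODE. Intervals are exact 95% Poisson intervals for a level and conditional binomial (Clopper-Pearson) intervals for a ratio, from reads on the shortest transcript, and the floor for a gene at 0 is 3 reads per library. They cover counting error only, since reads carried no molecular identifiers.

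Promoters are RefSeq windows of GRCm38.p6, searched for CACGTG, a palindrome, and for GCGGGAA on both strands. No E-box overlapped an E2F motif in a member's promoter. Shared 75-base stretches count those of a member's longest coding transcript that also occur in transcripts of other genes. The ratios were tested on simulated data. The work used Python 3.11.15, numpy 2.4.6, pandas 2.3.3, scipy 1.17.1 and matplotlib 3.10.9. Alternatives tried were a pseudocount of 0.1, centring, a filter on mean FPKM and the highest row for repeated symbols.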

Additional observations from a re-analysis of the deposited data

Results flagged for a closer look

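*Msh5* differed in opposite directions between libraries labelled *Dnmt3a* KO and WT in MEFs. With DMSO the log2 ratio of FPKM + 1 was -1.23, and with GSK126 it was 1.06. Each label and treatment is 1 library, and the difference between the treatments was not tested.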

How the results depend on the processing

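No paired analysis was possible because each comparison sets 1 library against 1 other, and a fit that pools heart with liver or DMSO with GSK126 was not run. With 1 library per condition, leaving out a replicate could not be run, and spread between cultures or embryos is unknown. Most members lie under 1 FPKM, where a few reads set the value, so the counts depend on the pseudocount. With 0.1 FPKM in place of 1 FPKM, members at least 2-fold apart in 2i-MEFs numbered 6 higher in *Dnmt3a* KO (7.39% of protein-coding genes at that setting) and 17 higher in *Dnmt3b* KO (4.31%). In libraries labelled *Dnmt3a* KO they were 9 higher in MEFs with DMSO (5.66%) and 9 with GSK126 (4.24%), 17 higher in heart (3.63%), and 16 higher (1.88%) and 3 lower (4.58%) in liver. With GSK126 against DMSO in MEFs labelled *Dnmt3a* KO they were 5 higher (2.94%) and 4 lower (4.6%). Above MEFs were 7 in *Dnmt3a* KO (2.91%) and 16 in *Dnmt3b* KO 2i-MEFs (3.36%), and above tissues 4 (9.65%) and 10 (9.24%). Centring on expressed genes left 1 member higher in MEFs with DMSO, 0 lower in liver and 1 in *Dnmt3a* KO 2i-MEFs above tissues, as *Stag3*, *Tdrd5* and *Brdt* came to 0.98, -0.93 and 0.96. Among the 10 members with a mean of at least 1 FPKM, 3 were higher in *Dnmt3b* KO 2i-MEFs (1.76% of protein-coding genes so filtered), 1 higher in MEFs with DMSO (2.51%), 2 higher in heart (0.926%), and 3 higher (0.483%) and 0 lower (1.32%) in liver. GSK126 against DMSO then gave 0 higher in WT (0.99%) and 1 higher in MEFs labelled *Dnmt3a* KO (1.13%). In this filtered set 4 in *Dnmt3b* KO 2i-MEFs were above MEFs (2.34%), and 1 in *Dnmt3a* KO (11.4%) and 2 in *Dnmt3b* KO 2i-MEFs (10.8%) above tissues. The smaller counts follow from testing fewer genes. Each member has 1 row, so taking the highest row for a repeated symbol could change no count of members and checks nothing. Centring reversed none of the 45 differences of single members. It was the only alternative that could, because neither another pseudocount nor the filter, which left 24 to compare, can turn a sign.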
